A study of Homo sapiens with 24 samples.

Results

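The genes described here are MDM2, PPM1D, CCNG1, TP53INP1, SESN1, SESN2, ZMAT3, BAX and BBC3, which are transcriptional targets of the tumour suppressor p53. They were chosen by name, as p53 response genes that include TP53INP1, a known target of miR-155, and CCNG1, a known target of miR-122. All 9 were found among the 29794 genes of the count tables, and all 9 passed the filter on low counts in both batches of libraries, where 14348 and 14054 genes were tested.

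p53 is a transcription factor that is held low in unstressed cells and accumulates after DNA damage and other stresses. MDM2 is the ubiquitin ligase that marks p53 for degradation and PPM1D is the phosphatase that switches off the damage signal, so both form negative feedback loops; CCNG1 encodes cyclin G1, which also acts back on MDM2. TP53INP1, the sestrins SESN1 and SESN2, and ZMAT3 take part in the stress response, autophagy and RNA stability, and BAX and BBC3 (PUMA) promote apoptosis. HEK293 cells carry the adenovirus E1A and E1B genes, whose products bind RB and p53, so basal p53 activity in this line is not that of untransformed cells.

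RNA-seq was performed on 24 libraries of Flp-In T-REx 293 cells, an established human embryonic kidney line (HEK293), to compare cells with and without an introduced microRNA (miRNA). Every culture had been transduced with a lentiviral vector, selected with geneticin at 1 mg/mL for 6 days and given doxycycline at 1 µg/mL for 7 days. The hairpin was carried in an intron of GFP under a doxycycline-inducible CMV promoter, and the empty vector control lacked it. Batch 1 held 2 libraries each of empty vector, miR-1 and miR-122, and batch 2 held 3 each of empty vector, miR-155, miR-133a and the related miR-302a, miR-373 and miR-372.

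Each replicate was a separately transduced culture of stably integrated cells. The level of each miRNA was not measured in these libraries. The authors measured miR-1 and miR-122 separately by small RNA-seq and qPCR, and by qPCR miR-1 was the higher. Library totals were 20153452 to 21595191 reads on exons in batch 1 and 13047400 to 35040778 in batch 2. Replicate 2 stood apart from its own group with miR-155, miR-302a and miR-372: the chi-square of the counts of a pair of libraries, per degree of freedom, was 16.1 to 35.7 for pairs with replicate 2 and 2.46 to 7.06 for replicates 1 and 3. This measure also grows with depth. Without replicate 2 each of these groups had the same member called against the empty vector, ZMAT3. The epithelial and mesenchymal genes typical of HEK293 were high in all libraries, with VIM at 908 to 1310 CPM (counts scaled to library size), KRT8 at 176 to 297 CPM and CDH2 at 85.6 to 121 CPM. PAX2 was lower, at 5.28 to 13.8 CPM, and NEFM was at 1.26 to 4.42 CPM. Markers of other cell types were at or near 0 for blood (PTPRC, at most 0.113 CPM) and liver (ALB, at most 0.35 CPM, and APOA1, at most 0.407 CPM). Of the muscle genes, MYH2 was at most 0.0783 CPM and ACTA1 was at 0.261 to 1.21 CPM. The fibroblast gene COL1A1 was at 8.17 to 25.7 CPM and COL3A1 at 0.626 to 5.93 CPM. PECAM1, a marker of endothelium, was not matched by symbol to a counted gene.

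The mature miRNAs (RefSeq) are shown because their seeds, bases 2 to 8 in capitals, define which 3′UTRs they can pair with.
hsa-miR-1-3p: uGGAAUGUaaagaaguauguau
hsa-miR-122-5p: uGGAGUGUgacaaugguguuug
hsa-miR-133a-3p: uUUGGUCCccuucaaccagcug
hsa-miR-155-5p: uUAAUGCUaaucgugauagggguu
hsa-miR-302a-3p: uAAGUGCUuccauguuuugguga
hsa-miR-372-3p: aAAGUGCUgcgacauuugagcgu
hsa-miR-373-3p: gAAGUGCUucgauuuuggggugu
The 7 miRNAs thus had 5 different seeds, since miR-302a, miR-372 and miR-373 share AAGUGCU. These 3 are called the miR-302a seed group here, and their mean is taken with equal weights.

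Seed matches and their absence refer to the longest annotated 3′UTR of each gene (GENCODE on GRCh37). Coding sequence and 5′UTRs were not searched. The 3′UTR was searched on the strand of its gene for 3 kinds of match. A 7mer-m8 is the complement of bases 2 to 8, an 8mer adds an A opposite base 1, and a 7mer-A1 is the complement of bases 2 to 7 with that A. The matches searched as 8mers were ACATTCCA for miR-1, ACACTCCA for miR-122, GGACCAAA for miR-133a, AGCATTAA for miR-155 and AGCACTTA for the miR-302a seed group. A match of any kind was present in 1 of the 9 genes for miR-1 (21.8% of all 18434 genes with a 3′UTR), in 4 for miR-122 (23.3%), in 1 for miR-133a (15.4%), in 3 for miR-155 (16.9%) and in 5 for the miR-302a seed (26.4%).

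**Figure D1:**
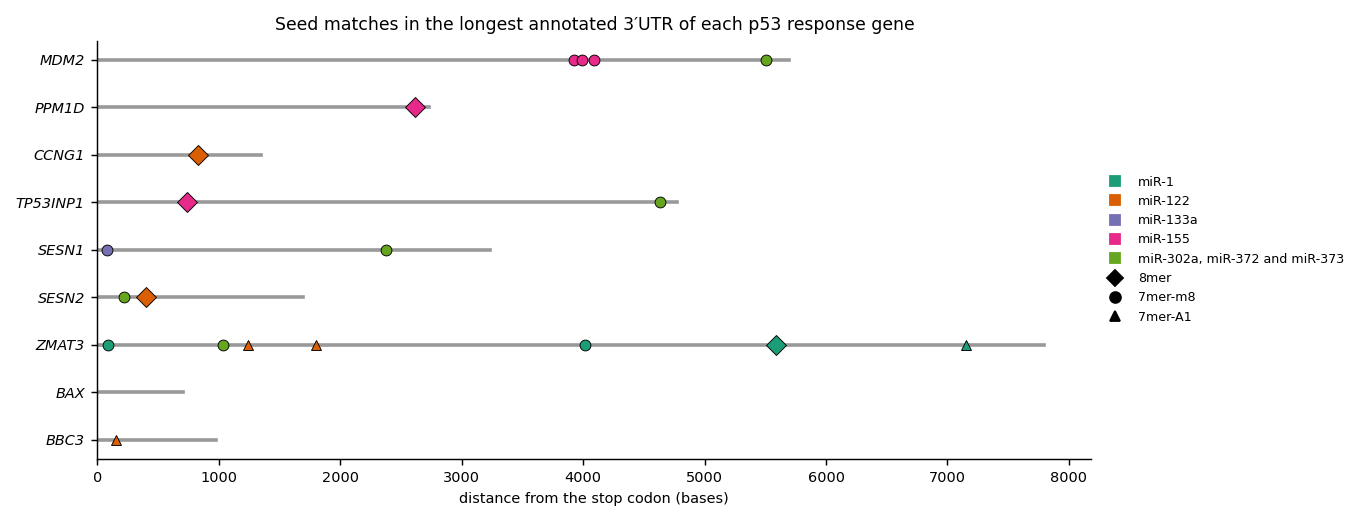
Seed matches along the longest annotated 3′UTR of each gene. The x axis is the distance from the stop codon in bases, grey lines are the 3′UTRs, colours are the miRNA seeds, and symbols are the kinds of match; 8mers are present in PPM1D and TP53INP1 for miR-155, in CCNG1 and SESN2 for miR-122 and in ZMAT3 for miR-1, and BAX has none.

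The sites below are the 8mers of miR-122 and miR-155 and the repeated miR-155 matches of MDM2, with the match in capitals and the flanking 3′UTR in lower case, 5′ to 3′ on the mRNA strand.
CCNG1, miR-122 8mer, chr5:162871508-162871515, plus strand: gactagattgaACACTCCAgaattttttac
SESN2, miR-122 8mer, chr1:28607712-28607719, plus strand: ctccgggactgACACTCCAggcagctttgc
PPM1D, miR-155 8mer, chr17:58743532-58743539, plus strand: gttttggtaatAGCATTAAtgaacaatgtt
MDM2, miR-155 7mer-m8, chr12:69237552-69237558, plus strand: gaggtcctccaAGCATTAtttggagttga
MDM2, miR-155 7mer-m8, chr12:69237621-69237627, plus strand: gaggtcctcgaAGCATTAtttggagttga
MDM2, miR-155 7mer-m8, chr12:69237722-69237728, plus strand: gaggtcctcaaAGCATTAttggagttcat
The 3 matches of MDM2 to miR-155 lay in near-identical flanks, at bases 3923, 3992 and 4093 of a 3′UTR of 5695 bases. The letters printed for CCNG1, SESN2, PPM1D and MDM2 were each found in the longest 3′UTR of 1 gene only. TP53INP1 had an 8mer of miR-155 at base 741 and a 7mer-m8 of the miR-302a seed at base 4632 of a 3′UTR of 4773 bases. Gene-level counts do not show which 3′UTR length the cells used.

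In empty vector cells CCNG1 was the most abundant of the 9 mRNAs per length and TP53INP1 the least. CCNG1 was at 169.6 ± 3.18 CPM per kb of exon (SD, n = 2) in batch 1 and at 182 ± 23.0 (SD, n = 3) in batch 2. BAX followed, at 52.4 ± 4.35 and 59.6 ± 5.20 CPM per kb. MDM2 (28.8 ± 0.573 in batch 1) and SESN2 (28.0 ± 1.10) did not differ beyond their spread, and in batch 2 they were at 26.9 ± 1.57 and 26.7 ± 2.84. SESN1 was next, at 21.2 ± 0.467 and 19.5 ± 1.30. PPM1D (14.3 ± 0.0495, then 13.4 ± 0.436) and BBC3 (12.7 ± 1.05, then 15.0 ± 0.336) changed places between batches. ZMAT3 was at 4.79 ± 0.157 and 4.58 ± 0.242, and TP53INP1 at 2.36 ± 0.0559 and 2.35 ± 0.0459, so these mRNAs kept the lowest places in both batches. TP53INP1 was counted at 98 to 624 reads per library, against 5092 to 16106 for CCNG1, and its fold changes were accordingly less precise than those of CCNG1 in batch 1.

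Each miRNA was then compared with the empty vector of its own batch by the quasi-likelihood test of edgeR, and a gene is called where its p-value adjusted over all genes tested was under 0.05. Of the 63 combinations of gene and miRNA, 9 were called. With miR-1, 1 member fell and 1 rose, where 13.7% of all genes tested were called lower and 10.8% higher. With miR-122, 2 members fell and 0 rose, against 4.06% and 1.86% of all genes, and with miR-133a 1 fell and 0 rose, against 3.97% and 1.37%. With miR-155, 0 fell and 1 rose, against 4.81% and 2.82% of all genes. The miRNAs of shared seed gave 0 lower and 1 higher each, where 4.85% and 3.02% of all genes were called for miR-302a, 6.56% and 4.82% for miR-372, and 3.3% and 1.83% for miR-373. With 9 genes, counts this small cannot be set apart from these shares, and the genes are described singly. Groups that do not overlap were common: this was so for 61.3% of all genes with miR-1, 47.6% with miR-122, 67.3% between miR-122 and miR-1, and 27% to 35.4% with the miRNAs of batch 2 against the empty vector. In bulk RNA, fewer cells with an mRNA and less of it per cell cannot be told apart.

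**Figure D2:**
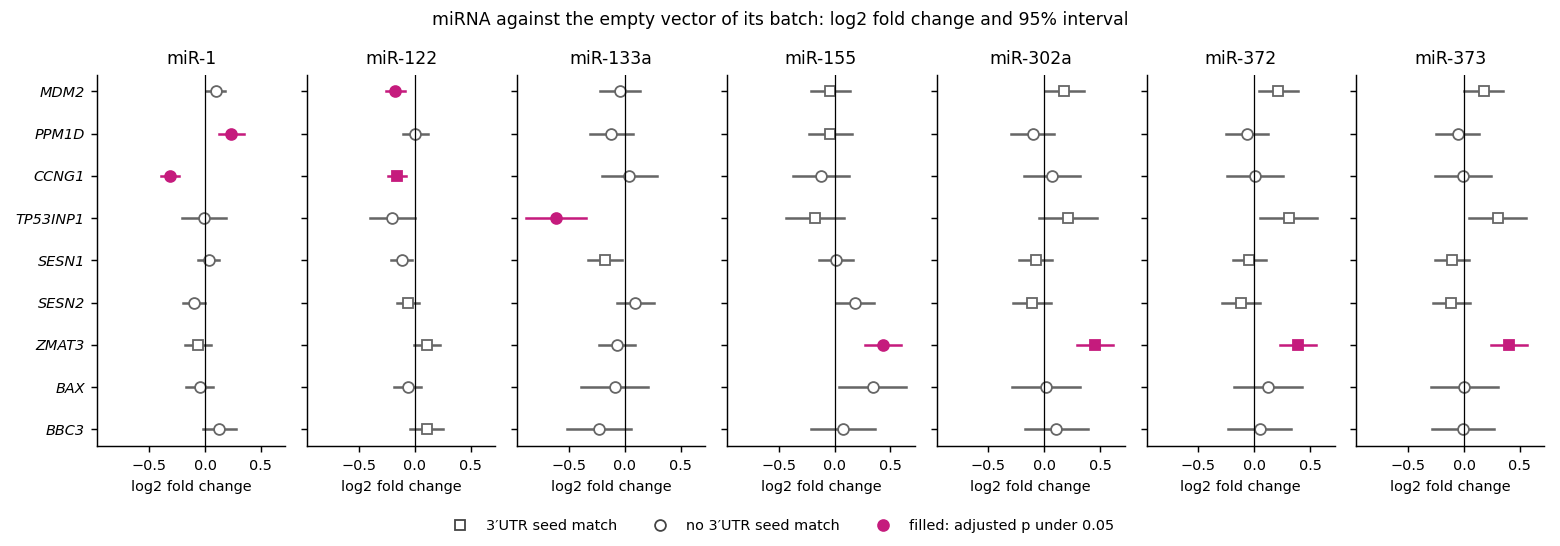
Log2 fold change of each gene with each miRNA against the empty vector of its batch; bars are 95% intervals of the edgeR fit, squares mark genes with a 3′UTR seed match and filled symbols an adjusted p under 0.05. Of the 24 combinations with a seed match only CCNG1 with miR-122 was called lower, and ZMAT3 was called higher with miR-302a, miR-372 and miR-373.

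A seed match in the 3′UTR did not separate the called from the uncalled genes. Among the 24 combinations of member and miRNA with a match, 1 was called lower (CCNG1 with miR-122) and 3 were called higher (ZMAT3 with each miRNA of the miR-302a seed group). Among the 39 without a match, 3 were called lower (CCNG1 with miR-1, MDM2 with miR-122 and TP53INP1 with miR-133a) and 2 higher (PPM1D with miR-1 and ZMAT3 with miR-155). No test was made of this division, as combinations that share a gene or a control are not independent.

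Of the feedback genes, MDM2 (ENSG00000135679.17, chr12:69201957-69239324, plus strand) fell modestly with miR-122. It was at 188 and 197 CPM in the miR-122 libraries, 220.4 and 214 CPM in the empty vector libraries of batch 1 and 232 and 233 CPM in the miR-1 libraries. The 3 groups did not overlap, with miR-122 lowest and miR-1 highest. Taken by pairs, 47.6% to 67.3% of all genes also did not overlap, and the share for all 3 groups at once was not computed. The log2 fold change was -0.17 (SE 0.042, adjusted p = 0.0139) for miR-122 and 0.10 (SE 0.041, adjusted p = 0.0973) for miR-1, which did not pass. Directly compared, MDM2 was lower with miR-122 than with miR-1 by -0.27 (SE 0.041, adjusted p = 5.93e-05). The call for miR-122 was lost without miR-122 replicate 1 (adjusted p = 0.272), and that between the miRNAs held in all 12 alternatives. MDM2 has no 3′UTR match to either seed, and counts in it may include reads of ENSG00000256325 and ENSG00000256664, which overlap it on the same strand.

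In batch 2 MDM2 was not called with any miRNA. Its 3 matches to miR-155 went with 197, 206 and 189.9 CPM, against 214, 190.3 and 205 CPM in the empty vector, and these ranges overlapped (log2 fold change -0.04, 95% interval -0.21 to 0.14, adjusted p = 0.823). It was at 225 to 232 CPM with miR-302a, 212 to 265 with miR-372 and 214 to 252 with miR-373. The log2 fold changes for these miRNAs, whose seed has a 7mer-m8 in MDM2, were 0.18, 0.22 and 0.17. None of them passed, and their mean was 0.19 (SE 0.069, adjusted p = 0.0702). This mean was called in 3 of 20 alternatives: by DESeq2 (adjusted p = 0.0392), with a replicate block (0.0382) and without miR-372 replicate 3 (0.033), when MDM2 was also called with miR-372 itself (0.0363). The MDM2 level with miR-155 was lower than that mean (-0.23, SE 0.069, adjusted p = 0.0198), where 27.1% of all genes were called in either direction. Without miR-155 replicate 1 or replicate 3 this call was lost, and its adjusted p over the libraries left out in turn ran from 0.0101 to 0.101.

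PPM1D (ENSG00000170836.7, chr17:58677554-58743641, plus strand), the phosphatase of the loop, rose with miR-1. It was at 53.02 and 52.83 CPM with miR-1, 44.8 and 45.0 CPM in empty vector cells and 45.8 and 44.4 CPM with miR-122. Only the miR-1 libraries stood apart, and the log2 fold change was 0.24 (SE 0.054, adjusted p = 0.00323), a level 118% of control. Libraries of miR-1 stood apart from the empty vector for 61.3% of all genes. Directly compared, PPM1D was called lower with miR-122 than with miR-1, by -0.23 (-0.26 to -0.21 over 12 alternatives). In that comparison 31.2% of all genes were called. With miR-155, for which PPM1D has an 8mer near the end of its 3′UTR (102 bases before it), the libraries were at 40.8, 41.7 and 40.5 CPM against 41.0, 41.8 and 43.6 CPM in the empty vector. These overlapped, and the log2 fold change was -0.04 (95% interval -0.23 to 0.15, adjusted p = 0.826). With the other miRNAs of batch 2 it ranged from -0.12 to -0.06, and none was called.

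CCNG1 (ENSG00000113328.14, chr5:162864575-162873157, plus strand) fell with miR-122, and it fell further with miR-1. The libraries were at 413 and 424 CPM in the empty vector, 377 and 371 CPM with miR-122, and 337 and 338 CPM with miR-1. The 3 groups did not overlap, and replicates differed by far less than the groups. By pairs of these groups, 47.6% to 67.3% of all genes also did not overlap. The log2 fold change was -0.16 for miR-122 (SE 0.038, 95% interval -0.24 to -0.08, adjusted p = 0.012), a decrease of 10.7%. For miR-1 it was -0.31 (SE 0.038, 95% interval -0.39 to -0.23, adjusted p = 7.53e-06), a decrease of 19.4%. The difference between the miRNAs was 0.15 (SE 0.038, adjusted p = 0.00597), with the higher level under miR-122, in a comparison where 31.2% of all genes were called. CCNG1 has the 8mer of miR-122 printed above and no 3′UTR match to the seed of miR-1. The call for miR-122 was lost without either miR-122 library (adjusted p up to 0.157) and that between the miRNAs without miR-122 replicate 1 or either miR-1 library (up to 0.0757), while the call for miR-1 held in all 12 alternatives; with a library left out in batch 1, the lone library is assumed to vary like the other groups.

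In batch 2 CCNG1 varied more between replicates than between groups. The empty vector libraries were at 513, 403 and 434 CPM. With miR-155 they were at 382, 500.2 and 361 CPM, the widest spread of any group. With miR-133a the values were 448, 510.2 and 431 CPM. Every miRNA group overlapped the empty vector, the log2 fold changes ran from -0.12 to 0.07 with standard errors of 0.12, and CCNG1 was not called. Against the mean of the miR-302a seed group, CCNG1 with miR-155 was called lower only without miR-155 replicate 2 (log2 difference -0.30, adjusted p = 0.0331; -0.14 with it). A change of the size seen with miR-122 would lie within the 95% interval of each of these comparisons.

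**Figure D3:**
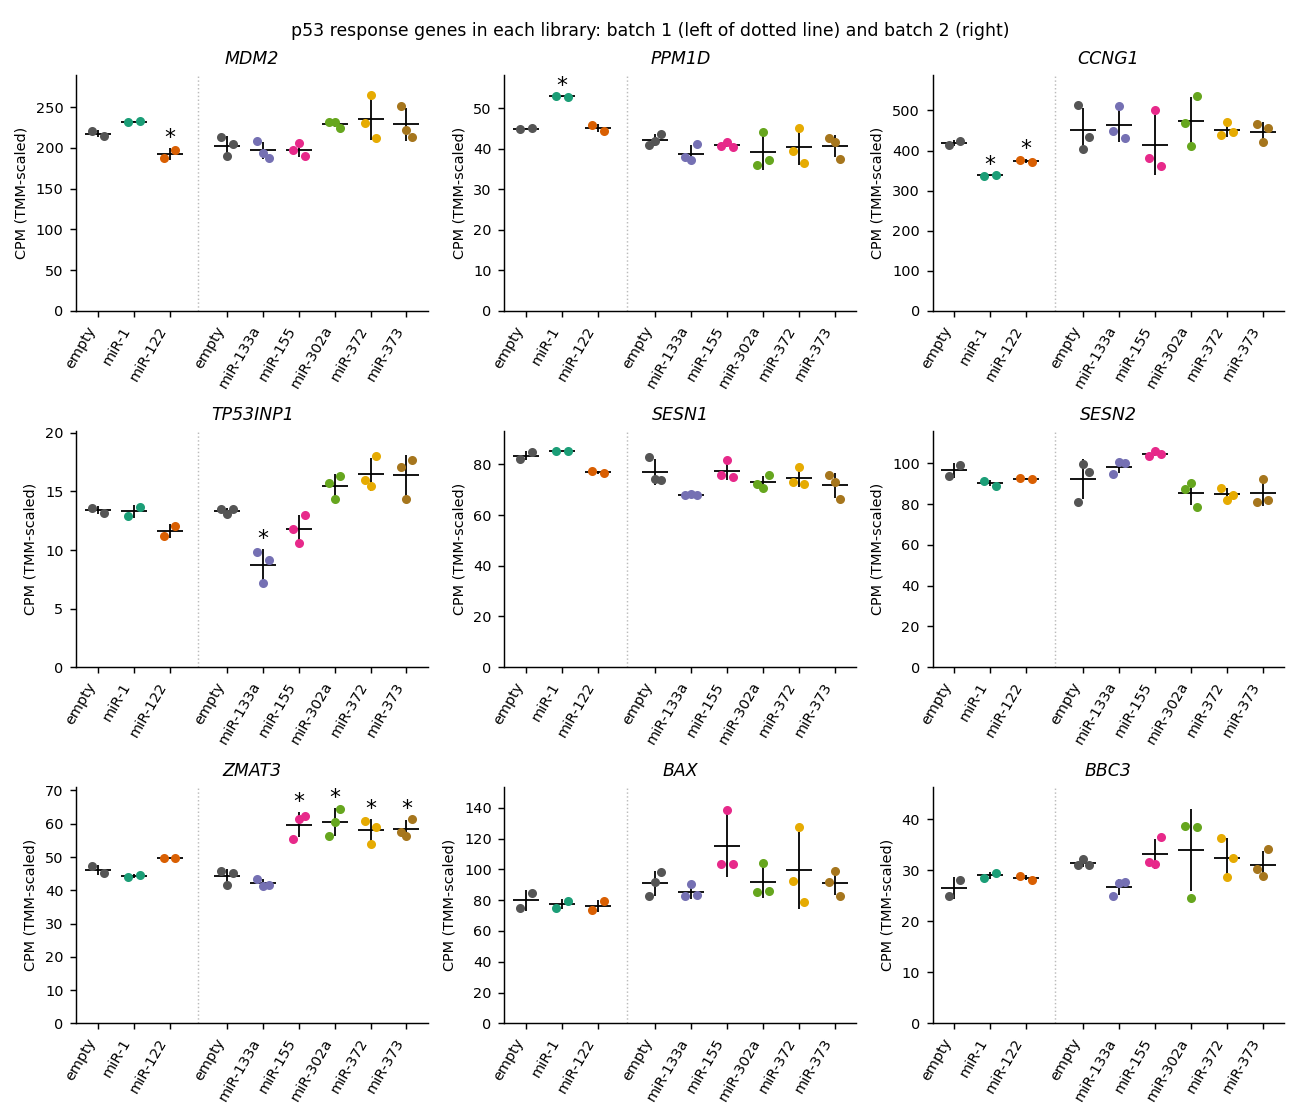
CPM of each gene in every library, by group; points are libraries, horizontal bars group means, vertical bars the SD, and asterisks mark an adjusted p under 0.05 against the empty vector of the same batch. CCNG1 sits lowest with miR-1 (337 and 338 CPM), TP53INP1 lowest with miR-133a (7.15 to 9.81 CPM), and ZMAT3 lies above the empty vector with miR-155 and with each miRNA of the miR-302a seed group.

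TP53INP1 (ENSG00000164938.9, on chromosome 8), a small protein that supports p53 activity and autophagy, gave the widest range of levels among miRNAs. In batch 2 the empty vector libraries were at 13.5, 13.1 and 13.5 CPM. With miR-133a they were at 9.81, 7.15 and 9.16 CPM, all below every control. Such a separation, in either direction, held for 35.4% of all genes. The log2 fold change was -0.62 (SE 0.13, 95% interval -0.89 to -0.35, adjusted p = 0.00629), a decrease of 34.7%, although TP53INP1 has no 3′UTR match to miR-133a. The adjusted p was 0.0517 without miR-133a replicate 2, the lowest library, and between 0.000511 and 0.0517 over the 14 alternatives.

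With miR-155, TP53INP1 was at 11.8, 10.6 and 13.0 CPM. All 3 libraries lay below all 3 controls, which was so, in either direction, for 30.8% of all genes in this comparison. The log2 fold change was -0.18 (SE 0.13, 95% interval -0.44 to 0.09, adjusted p = 0.41), so the decrease of 11.5% did not pass the test, and it passed in none of the 14 alternatives. The interval leaves room for a decrease larger than that of CCNG1 with miR-122. Libraries held 139 to 183 reads of TP53INP1 with miR-155 and 180 to 198 in the empty vector.

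With the 3 miRNAs of the miR-302a seed group, levels of TP53INP1 lay above the controls, at 14.4 to 16.3, 15.4 to 18.1 and 14.4 to 17.7 CPM. None of these libraries overlapped the empty vector, as was so for 29.5%, 30.1% and 27% of all genes, and none of the comparisons passed, with log2 fold changes of 0.21 (adjusted p = 0.311), 0.31 (0.107) and 0.30 (0.183). The mean of the 3 miRNAs was 0.27 above the empty vector (SE 0.10, adjusted p = 0.0743), where 9.11% of all genes were called lower and 6.28% higher. With a replicate block TP53INP1 was called with miR-372 (adjusted p = 0.037) and for the mean (0.0223). TP53INP1 has a 7mer-m8 of this seed near the 3′ end of its 3′UTR.

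Directly compared, the miRNAs of batch 2 differed in TP53INP1. The level with miR-155 was higher than with miR-133a by 0.44 on the log2 scale (SE 0.13, adjusted p = 0.0246), where 16.7% of all genes were called. It was lower than the mean of the miR-302a seed group by -0.45 (SE 0.10, 95% interval -0.66 to -0.23, adjusted p = 0.00296), a decrease of 26.8% that was called in all 20 alternatives. In the order of levels, miR-372 (16.5 ± 1.39 CPM) and miR-373 (16.4 ± 1.75) did not differ beyond their spread, nor did miR-302a (15.5 ± 0.992). The empty vector (13.4 ± 0.261), miR-155 (11.8 ± 1.17) and miR-133a (8.71 ± 1.39) followed. The comparison of miR-155 with miR-133a was not called in a fit of those groups alone (adjusted p = 0.0692), nor without miR-133a replicate 2, miR-155 replicate 1 or miR-155 replicate 3, and the adjusted p over its 14 alternatives ran from 0.00496 to 0.126.

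In batch 1 TP53INP1 was at 13.6 and 13.2 CPM in the empty vector, 12.9 and 13.7 CPM with miR-1 and 11.2 and 12.1 CPM with miR-122. The miR-122 libraries were below both controls and those of miR-1 were not. Neither comparison was called, with log2 fold changes of -0.20 (adjusted p = 0.251) for miR-122 and -0.01 (adjusted p = 0.937) for miR-1.

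ZMAT3 (ENSG00000172667.6, chr3:178677909-178790003, minus strand), a zinc finger protein that binds RNA, was the member called most often, and it rose in 4 of the 5 miRNA groups of batch 2. The empty vector libraries were at 45.8, 41.5 and 45.3 CPM. With miR-155 the level was 55.4, 61.3 and 62.5 CPM, with a log2 fold change of 0.43 (SE 0.078, adjusted p = 0.00148), an increase of 35.1%. Every library of this group was above every control, a separation that 30.8% of all genes showed in either direction. With miR-302a (56.3, 60.7 and 64.5 CPM), miR-372 (60.8, 54.0 and 59.1 CPM) and miR-373 (57.5, 56.3 and 61.4 CPM) the log2 fold changes were 0.45, 0.39 and 0.40, with adjusted p-values of 0.00105, 0.00267 and 0.0036. These 4 comparisons share the 3 control libraries, but each was called in all 14 of its alternatives, leaving out each control library included.

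With miR-133a ZMAT3 did not move with the other groups of batch 2. The libraries were at 43.5, 41.3 and 41.6 CPM and overlapped the controls (log2 fold change -0.07, 95% interval -0.23 to 0.10, adjusted p = 0.664). Without using the controls, ZMAT3 was higher with miR-155 than with miR-133a by 0.50 (SE 0.078, adjusted p = 0.000146), and miR-155 did not differ detectably from the mean of the miR-302a seed group (0.02, 95% interval -0.11 to 0.15, adjusted p = 0.866). ZMAT3 has a match to the miR-302a seed and none to miR-155.

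In batch 1 the ZMAT3 libraries were at 47.2 and 45.1 CPM in the empty vector, 43.9 and 44.6 CPM with miR-1 and 49.7 and 49.8 CPM with miR-122. Neither miRNA was called against control. The 3′UTR of 7794 bases holds 4 matches to miR-1, among them an 8mer, with a log2 fold change of -0.06 for miR-1 (95% interval -0.18 to 0.06, adjusted p = 0.468). ZMAT3 was higher with miR-122 than with miR-1 by 0.17 (SE 0.055, adjusted p = 0.0249), a call that was lost when any of the 4 libraries was left out, by DESeq2 (adjusted p = 0.154) and under a minimum change of 0.2.

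The sestrins, which restrain mTORC1 and limit oxidative stress, were not called with any miRNA. SESN1 (ENSG00000080546.9, chr6:109305512-109416049, minus strand) was lowest with miR-133a, for which it has a 7mer-m8 at base 76 of its 3′UTR, at 67.8, 68.2 and 68.0 CPM against 83.0, 74.3 and 73.9 CPM in the empty vector. The groups did not overlap (35.4% of all genes), but the log2 fold change of -0.18 (95% interval -0.33 to -0.03) had an adjusted p of 0.164. With miR-122 SESN1 was at 77.2 and 76.5 CPM against 82.2 and 84.8 CPM in the empty vector (-0.12, adjusted p = 0.153). It was lower with miR-122 than with miR-1 (85.4 and 85.3 CPM) by -0.15 (SE 0.047, adjusted p = 0.0184), and that call ended without any of these 4 libraries, by DESeq2 (adjusted p = 0.0973) and under a minimum change of 0.2. The SESN1 count may hold reads of RNU6-653P on the same strand.

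SESN2 (ENSG00000130766.4, chr1:28586029-28609002, plus strand) has the second 8mer of miR-122 among the 9 genes, and it was at 92.7 and 92.2 CPM with miR-122 against 93.9 and 99.3 CPM in the empty vector. The miR-122 libraries were the lower, by -0.06 on the log2 scale (95% interval -0.16 to 0.03, adjusted p = 0.499). With miR-155 SESN2 was at 104 to 106 CPM, above the 81.1, 99.7 and 95.7 CPM of the empty vector, a log2 fold change of 0.18 (adjusted p = 0.166). With miR-302a, miR-372 and miR-373 its group means were 85.4, 84.8 and 85.3 CPM, and miR-155 was higher than their mean by 0.30 (SE 0.064, adjusted p = 0.00183). The groups of this direct comparison did not overlap, which was so for 19.2% of all genes.

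Of the pro-apoptotic genes, BAX (ENSG00000087088.15, chr19:49458072-49465055, plus strand) was highest with miR-155, at 103.5, 139 and 103.5 CPM against 82.5, 92.0 and 98.3 CPM in the empty vector. The groups did not overlap (30.8% of all genes), and replicate 2 of miR-155, a library that stood apart over all genes, was well above the others. The log2 fold change was 0.34 (SE 0.14, 95% interval 0.04 to 0.64, adjusted p = 0.153) and did not pass, although it was called with no filter (0.0331) and with a replicate block (0.0454). Without replicate 2 of either miR-302a or miR-372, with no filter, with the block or by the likelihood ratio test, BAX was called higher with miR-155 than in the miR-302a seed group (0.29, adjusted p = 0.0645, in the fit of all libraries and 0.00483 to 0.467 over 20 alternatives). Against miR-133a (82.6, 90.4 and 83.2 CPM) BAX was higher by 0.43 (SE 0.14, adjusted p = 0.0460), a call lost without miR-155 replicate 2 or any of the miR-133a libraries (adjusted p from 0.0426 to 0.222 over the libraries left out). With miR-372, replicate 2 was likewise the highest library at 127 CPM, beside 92.2 and 78.9 CPM. BAX has no seed match for any of the miRNAs in its longest annotated 3′UTR.

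BBC3 (ENSG00000105327.11, chr19:47724079-47736023, minus strand) was not called with any miRNA or in any direct comparison. Its lowest group was miR-133a, at 25.0, 27.6 and 27.7 CPM, below the 31.1, 32.2 and 31.0 CPM of the empty vector (log2 fold change -0.23, 95% interval -0.52 to 0.06). With miR-302a it was at 38.7, 24.6 and 38.5 CPM, so the replicates of this group spanned the range of all others. With miR-122, for which it has a 7mer-A1, BBC3 was at 28.9 and 28.2 CPM against 24.9 and 28.1 CPM in the empty vector, and the values nearly met (log2 fold change 0.10, adjusted p = 0.458).

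The miRNAs that share a seed were also compared with each other. In these pairs none of the 9 genes was called by edgeR, 0 of the 27 comparisons had an unadjusted p under 0.05, and DESeq2 called 0. Of all genes tested, 0% were called in each of the 3 pairs. Log2 differences between the 3 miRNAs lay between -0.11 and 0.12 for the 9 genes.

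A list of 50 further genes of the p53 pathway was counted beside the 9 genes, of which 49 were in the tables and 47 were tested. MDM4, the partner of MDM2 in holding p53 inactive, was not called with any of the 7 miRNAs.

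CDKN1A, which encodes the cell cycle inhibitor p21 and is the classical p53 target, moved in opposite directions with different miRNAs. It was at 82.2 and 84.4 CPM in the empty vector of batch 1, 98.2 and 105 CPM with miR-1, and 65.1 and 68.0 CPM with miR-122. The groups did not overlap, as 47.6% to 67.3% of all genes also did not by pairs of these groups. Both miRNAs were called (0.29, SE 0.049, adjusted p = 0.000277 for miR-1 and -0.32, SE 0.051, adjusted p = 0.000302 for miR-122). In batch 2 it was at 70.3, 71.5 and 76.3 CPM in the empty vector and at 104, 106 and 103.5 CPM with miR-155, a log2 fold change of 0.52 (SE 0.095, adjusted p = 0.00178). With miR-302a it was at 59.0, 48.6 and 61.7 CPM, a change of -0.37 (SE 0.097, adjusted p = 0.0233), and with miR-133a, miR-372 and miR-373 it was not called. The call for miR-302a was lost without any library but miR-302a replicate 3 (adjusted p up to 0.0907). No match to any of the seeds was found in its longest 3′UTR.

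The tested genes comprise 12 at the head of the pathway and 35 targets of p53, and the targets leaned in different directions with miR-133a and miR-155. With miR-133a 7 targets fell and 0 rose, where 3.97% and 1.37% of all genes did, 25 of 35 were below 0, and their median log2 fold change was -0.19, beside a median of 0.00 over all genes. The lowest called were TNFRSF10B, a death receptor (-0.87, SE 0.080, adjusted p = 7.12e-07), SPATA18 (-0.65, adjusted p = 0.0292) and DDB2, a DNA repair factor (-0.56, adjusted p = 0.00572). TNFRSF10B, at 107 ± 7.66 CPM against 195 ± 8.56 CPM, and SPATA18 have a match to miR-133a and DDB2 has none. With a fit of these groups alone 17 genes of the whole list were called, in place of 7. Over all genes that fit called 2349 of 13581, in place of 750 of 14054. With 1 library left out, 3 to 5 genes of the list were called, the fewest without empty vector replicate 2 or 3. The call of SPATA18 was lost without any library but miR-133a replicate 2 (adjusted p up to 0.122), and those of TNFRSF10B and DDB2 held with each library left out.

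With miR-155, 6 of the 35 targets rose and 0 fell, where 2.82% and 4.81% of all genes did, 28 were above 0, and the median was 0.18, beside 0.01 over all genes. DDB2 (0.55, SE 0.11, adjusted p = 0.0044), CDKN1A and GADD45A (0.47, SE 0.13, adjusted p = 0.0373) were the highest of those called. The whole list had 7 calls, and 4 without empty vector replicate 2 or miR-155 replicate 2. GADD45A, a growth arrest gene, was at 79.2 ± 2.99 CPM against 57.4 ± 7.0 CPM. At the head of the pathway HIPK2, a kinase of p53, fell (-0.43, SE 0.11, adjusted p = 0.0268). None of these genes has a seed match to miR-155. The calls of DDB2 and CDKN1A held with each library left out, whereas GADD45A (adjusted p up to 0.154) and HIPK2 (without empty vector replicate 2 or miR-155 replicate 2, up to 0.175) lost theirs. Directly compared with miR-133a, 15 of the 35 targets were higher with miR-155 and 1 was lower, where 16.7% of all genes were called in either direction, with a median difference of 0.37 beside 0.01 over all genes.

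With the miR-302a seed the same list gave calls in both directions. BTG2, an antiproliferative gene, rose with each of the 3 miRNAs (0.42, 0.48 and 0.41, adjusted p = 0.00241, 0.00054 and 0.00373), from 87.9 ± 5.44 CPM to group means of 117 to 123 CPM. SFN (0.73, 0.95 and 0.73) and CD82 (1.20, 1.09 and 0.96), a tetraspanin with a seed match, also rose but reached at most 7.83 and 3.86 CPM. The death receptor FAS fell with each (-0.47, -0.46 and -0.42, adjusted p = 0.0116, 0.0105 and 0.0299). For the mean of the 3 miRNAs, 8 of the 47 genes fell and 5 rose, against 9.11% and 6.28% of all genes, SPATA18 (-0.59), FAS (-0.45) and DRAM1 (-0.42) being the lowest called. The median of the targets was 0.00. With 1 library left out the calls of FAS could be lost with each miRNA (adjusted p up to 0.0788, 0.0578 and 0.142), that of CD82 with miR-373 (up to 0.116) and those of SFN with miR-302a (up to 0.0642) and miR-373 (up to 0.0787), and that of DRAM1 for their mean (up to 0.193), but not those of BTG2.

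**Figure D4:**
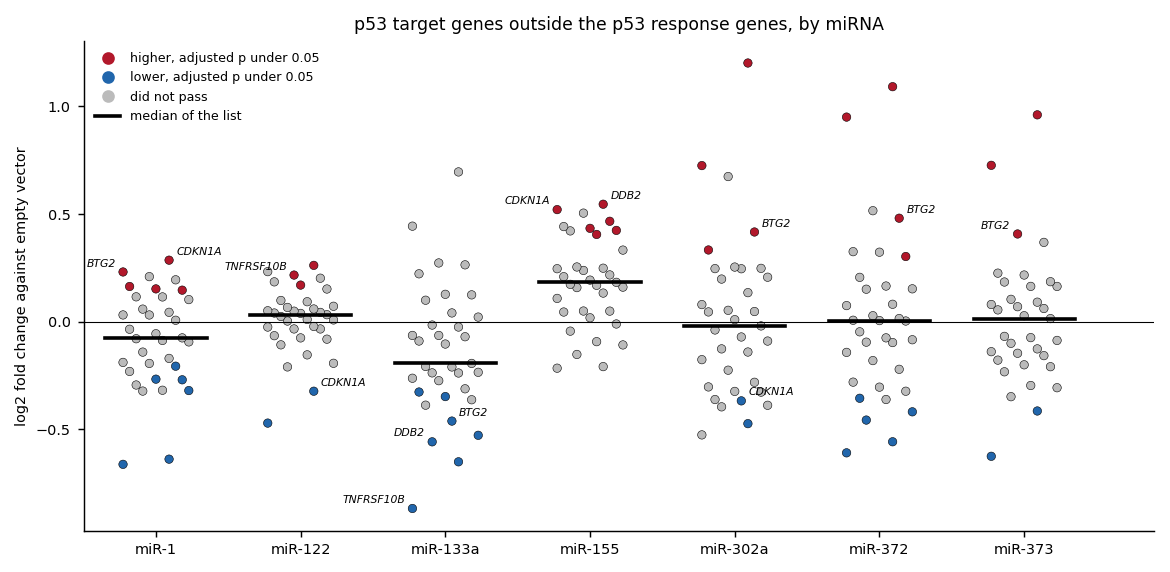
Log2 fold changes of the 35 tested p53 target genes outside the 9 described, by miRNA; points are genes, red and blue mark genes called higher and lower, and black lines are medians. The median lies at -0.19 with miR-133a and at 0.18 with miR-155, and CDKN1A is called higher with miR-1 and miR-155 and lower with miR-122 and miR-302a.

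In batch 1, 8 of the 47 tested genes of the p53 list fell and 7 rose with miR-1, where 13.7% and 10.8% of all genes did. The count of 15 was 5 by DESeq2, 5 without miR-1 replicate 1, 9 without miR-1 replicate 2 and 8 without empty vector replicate 2. Of the called genes, PLK2 (-0.66, adjusted p = 0.000108), LIF (-0.64, adjusted p = 0.00213) and GLS2 (-0.32, adjusted p = 0.0294) were the lowest, and CDKN1A, BTG2 (0.23, adjusted p = 0.00213) and USP7, which removes ubiquitin from p53 and MDM2 (0.18, adjusted p = 0.00219), the highest. With miR-122, 3 fell and 3 rose, where 4.06% and 1.86% of all genes did, led by SUSD6 (-0.47, adjusted p = 0.00139), CDKN1A and HIPK2 (-0.23, adjusted p = 0.0119) on the lower side and by FAS (0.26, adjusted p = 0.0356), TNFRSF10B (0.22, adjusted p = 0.00149) and PERP (0.17, adjusted p = 0.0147) on the higher. The count of 6 was 11 without empty vector replicate 2 and 3 without miR-122 replicate 1. Of these genes, GLS2 has a match to miR-1 and SUSD6 a match to miR-122. A single library left out could end the calls of GLS2 (adjusted p up to 0.365) and USP7 (up to 0.0517) with miR-1, and of HIPK2 (up to 0.265), FAS (up to 0.304) and PERP (up to 0.142) with miR-122.

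In the BCL-2 family, 13 of 14 genes were tested beside BAX and BBC3, and calls were made with miR-1, miR-122, miR-133a and miR-155. With miR-1, 0 fell and 2 rose, where 13.7% and 10.8% of all genes did. With miR-122, 1 fell and 0 rose, against 4.06% and 1.86% of all genes. With miR-133a, 1 fell and 1 rose, against 3.97% and 1.37%, and with miR-155, 2 fell and 1 rose, against 4.81% and 2.82%. With 13 genes, counts this small cannot be set apart from these shares. With miR-155 the anti-apoptotic BCL2 (-0.53, SE 0.11, adjusted p = 0.00571) and the BH3-only BCL2L11 (-0.41, SE 0.071, adjusted p = 0.000978) fell, and BAD (0.50, SE 0.11, adjusted p = 0.00913) rose. BCL2 has a match to miR-155. With miR-133a BMF fell (-0.61, SE 0.13, adjusted p = 0.00869) and BAD rose (0.46, SE 0.11, adjusted p = 0.0192). BCL2L11 also fell with miR-122 (-0.21, adjusted p = 0.0396), and MCL1 (0.20, adjusted p = 0.00173) and BMF (0.21, adjusted p = 0.0437) rose with miR-1, for which BMF has a match. Leaving out 1 library could end the calls of BMF with miR-133a (miR-133a replicate 2, adjusted p = 0.0524), of BMF with miR-1 (up to 0.255), of BAD with miR-133a (up to 0.0957) and of BCL2L11 with miR-122 (up to 0.454).

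Among relatives of the members, SESN3 differed from SESN1 and SESN2 in being called lower with all 5 miRNAs of batch 2. Its group means were 77.1 ± 6.75 CPM with miR-133a and 84.9 to 90.5 CPM with the other miRNAs, against 116 ± 11.7 CPM in the empty vector. The log2 fold changes ran from -0.59 to -0.36 with adjusted p-values of 0.00107 to 0.0403. These comparisons share the 3 control libraries, and without empty vector replicate 1, the highest of them, SESN3 was not called with miR-155, miR-302a or miR-373 (adjusted p up to 0.127, 0.096 and 0.2 over the libraries left out), and without replicate 2 it was not called with them either. The SESN3 call was also lost with miR-155 without its replicate 2 and with miR-302a without its replicate 1. With miR-373 it was lost without any single miR-373 library. The calls with miR-133a and miR-372 held with each library left out. SESN3 has a match to miR-133a and to miR-155. CCNG2, the relative of CCNG1, was not called with any miRNA.

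Genes with levels much like those of CCNG1 over the 24 libraries, on log2 CPM centred within each batch and among 12154 genes, were RPL23 (Pearson r = 0.886, Spearman rho = 0.896) and MT-ND3 (r = 0.871, rho = 0.857). RPL23 encodes a ribosomal protein and MT-ND3 a mitochondrial subunit of complex I. Within batch 1 alone the Pearson values were 0.827 and 0.967, and within batch 2 they were 0.911 and 0.849. Of the other members, MDM2 was highest with CCNG1 (0.213), and PPM1D (-0.438) and SESN2 (-0.372) were lowest. PPM1D was negative in both batches (-0.844 and -0.304), and SESN2 changed sign between batch 1 (0.875) and batch 2 (-0.512). These libraries share groups and preparation, and the values are descriptive.

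For TP53INP1 the most like genes were EFNB3 (r = 0.931, rho = 0.945), MCAM (0.925, rho = 0.824) and SGTB (0.925, rho = 0.903). EFNB3 encodes an ephrin ligand, MCAM an adhesion molecule and SGTB a co-chaperone. The likeness was weaker in batch 1 (0.54, 0.781 and 0.429) than in batch 2 (0.942, 0.929 and 0.947), where the groups spanned a wider range of TP53INP1. Of the other members, ZMAT3 (0.621) and MDM2 (0.616) were nearest and SESN2 (-0.696) was farthest.

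**Figure D5:**
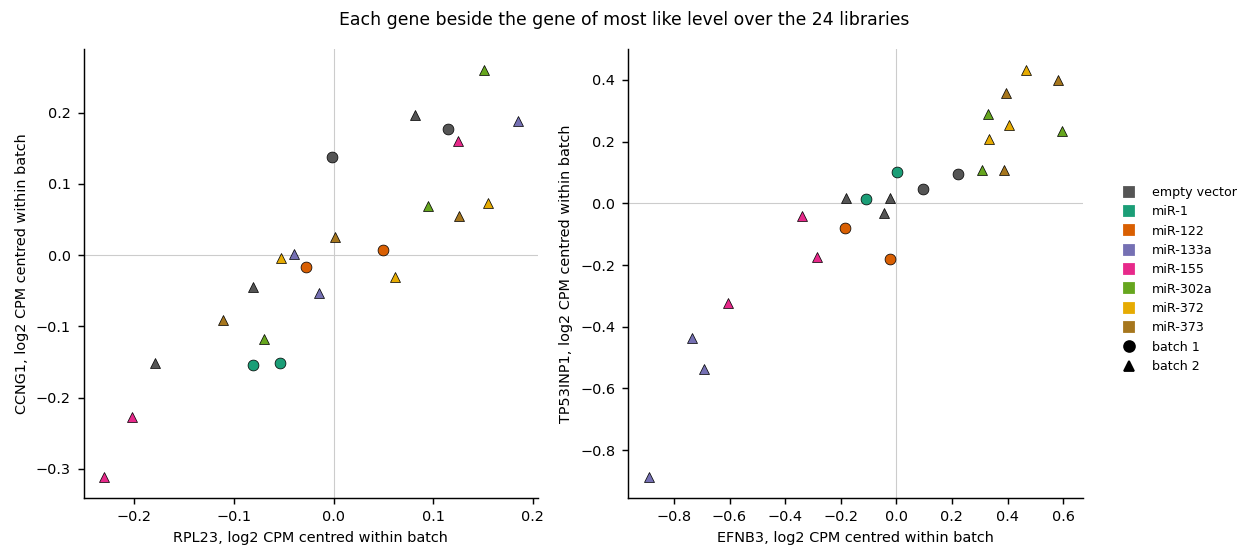
CCNG1 beside RPL23 and TP53INP1 beside EFNB3 in the 24 libraries, as log2 CPM minus the mean of the batch; colours are groups, circles batch 1 and triangles batch 2. In batch 2 CCNG1 spreads within groups along the line with RPL23 (r = 0.886 over both batches). In batch 1 the CCNG1 groups lie apart, highest in the empty vector and lowest with miR-1. TP53INP1 and EFNB3 (r = 0.931 over both batches) order the groups of batch 2, with miR-133a lowest and the miR-302a seed group highest.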

How the data were processed

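PolyA-selected, strand-specific RNA-seq libraries were made from 1000 ng of total RNA. The authors clipped adapters (fastx_clipper), aligned reads to hg19 with TopHat2 2.1.1 and counted them over exons by strand with featureCounts under a minimum mapping quality, and deposited unnormalised counts for 29794 genes per batch. Strand-specific counting keeps antisense reads apart but not overlapping genes of the same strand. Deposited tables of the authors' own comparisons (edgeR fold changes, mean log2 CPM, p-values and q-values) were not used, and 0 per-sample columns of the count tables were left out.

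Groups and replicate numbers came from the labels. In R 4.3.3 with edgeR 4.0.16, each batch was filtered by filterByExpr (minimum count 10), scaled by TMM and fitted with all its groups by quasi-likelihood, with a prior count of 0.125 and Benjamini-Hochberg adjustment over all genes tested. A standard error is the size of the fitted change divided by the root of its F statistic, and intervals are at 95%. CPM values use TMM-scaled library sizes, and CPM per kb divides them by the deposited exon length. The functions were tested on simulated data. Names and positions came from GENCODE v44 lifted to GRCh37, in which 28543 genes matched, and 18 of 18 member sites outside TP53INP1 matched the genome sequence. Mature miRNAs came from the RefSeq table.

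The members, lists and tests were chosen with earlier results of these data known. Named are the 9 members, up to 3 lowest and 3 highest called genes of each list, and MDM4, CDKN1A, SESN3 and CCNG2. Not every comparison of each member is printed. In the likeness measure, genes needed a mean log2 CPM of at least 1 in each batch, with a prior count of 2. Some genes and a site sequence that this rule would name are not reported here.

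Alternatives were DESeq2 size factors, the Wald test of DESeq2 1.42.0, the edgeR likelihood ratio test, no filter, more than 1 CPM in every library, a block for replicate number, a fit of only the groups compared, calls limited to changes of at least 0.2 on the log2 scale, other definitions of a site, and each library left out in turn. Same-numbered libraries of miR-155 and miR-133a deviated together from their group means (r = 0.183, 0.345 and 0.198), as did those of miR-302a and miR-372 (0.227, 0.336 and 0.161), of miR-155 and miR-372 (0.273, 0.614 and 0.451) and of miR-155 and miR-302a (0.131, 0.202 and 0.112). Those of miR-155 and miR-373 did not for all numbers (-0.0614, 0.191 and 0.338), and the comparisons with the empty vector did not show this for all numbers.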

Additional observations from a re-analysis of the deposited data

How the results depend on the processing

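Of the changes in members against the empty vector, those of CCNG1 and PPM1D with miR-1 were called under every alternative tried. So were those of ZMAT3 with miR-155 and each miRNA of the miR-302a seed group. Between miRNAs the same held for MDM2 and PPM1D (miR-122 against miR-1) and for ZMAT3 (miR-155 against miR-133a). It also held for TP53INP1 and SESN2 with miR-155 against the mean of the miR-302a seed group. A minimum absolute log2 fold change of 0.2 ended the calls of CCNG1 with miR-122 (-0.16) and between miR-122 and miR-1 (0.15) and of MDM2 with miR-122, and those of SESN1 and ZMAT3 between miR-122 and miR-1, so the count of members called with miR-122 went from 2 to 0. A fit of only the groups compared ended the call of TP53INP1 between miR-155 and miR-133a (0.44). The count of members was 2 with miR-155 with no filter, and 2 for the mean of the miR-302a seed group by the DESeq2 Wald test, in place of 1 each; the cause was not tested. The count of p53 pathway genes with miR-1 was 9 (minimum fold change) and 5 (DESeq2 Wald test) in place of 15. It was 17 (only the groups compared) with miR-133a and 13 (likelihood ratio test) with miR-302a, in place of 7 each. With miR-372 it was 14 (no filter) and 5 (only the groups compared) in place of 9. Calls over all genes moved too, from 3520 with miR-1 to 2468 (minimum fold change) and 1787 (DESeq2 Wald test). They went from 750 with miR-133a to 2349, from 1107 with miR-302a to 1439 and from 1599 with miR-372 to 1762 (no filter). The causes were not tested. Counting 8mers only, 2 members matched miR-122 and 0 each miR-133a and the miR-302a seed, by construction. In any annotated 3′UTR, 6 members matched the miR-302a seed in place of 5, and the counts for the other seeds did not change.

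The numbering does not support a replicate block against the empty vector, except weakly for miR-373. With the block, members called numbered 2 with miR-155, 2 with miR-372 and 3 for the mean of the miR-302a seed group, in place of 1 each. The count of p53 pathway genes was 9 with miR-1 (from 15) and 14 with miR-302a (from 7). Between miRNAs whose numbers pair, the block changed no call of a member for miR-155 against miR-133a or miR-302a against miR-372, and for miR-155 against the mean of the miR-302a seed group it added BAX (0.29, adjusted p = 0.0105). Same-numbered miRNA and empty vector libraries correlated at -0.186 to 0.22.

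Leaving out a library in turn, members called ranged from 2 to 3 with miR-1, 0 to 2 with miR-122, 0 to 1 with miR-133a and 1 to 2 with miR-372 and with the mean of its seed group, and stayed at 1 with miR-155, miR-302a and miR-373. p53 pathway genes called ranged from 5 to 18 (miR-1), 3 to 11 (miR-122), 3 to 5 (miR-133a), 4 to 6 (miR-155), 3 to 9 (miR-302a), 3 to 11 (miR-372) and 2 to 4 (miR-373). A member count moved without either empty vector library of batch 1 (miR-1, adding SESN2 or BBC3), either miR-122 library, miR-133a replicate 2 or miR-372 replicate 3, and each count of pathway genes moved by over 1.5 times without at least 1 control library. Log2 fold changes ranged from -0.18 to -0.14 (CCNG1, miR-122), 0.13 to 0.16 (CCNG1, miR-122 against miR-1), -0.25 to -0.11 (TP53INP1, miR-155), 0.32 to 0.53 (TP53INP1, miR-155 against miR-133a) and -0.52 to -0.39 (TP53INP1, miR-155 against the miR-302a seed group). With 2 or 3 libraries a group and 139 to 183 reads of TP53INP1 in the miR-155 libraries, changes of the size of the miR-155 estimate could not be resolved.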
